A study of Mus musculus with 31 samples.

Results

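The genes described here were 8 acute phase and epithelial defence genes of the mouse, Lcn2, Saa3, Saa1, Saa2, Hp, Ptx3, Slpi and Elf3, of the 56980 gene entries in the largest of 3 count tables of Panc02 cells, a murine pancreatic adenocarcinoma line. They were chosen by symbol, because several of them rose with conditioned medium of M1 macrophages in these same data, so their values in that table are given as a description with no test. The other tables played no part in that reason, and the differences there were tested. All 8 were listed in each table, and 6, 4 and 5 of them had enough counts to be tested in the conditioned medium, 2D/3D and rescue tables.

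Acute phase proteins are secreted defence proteins whose genes are switched on by inflammatory cytokines such as IL-1, IL-6, oncostatin M and LIF, acting through NF-κB, STAT3 and the C/EBP family. The liver is their main source, and epithelia and tumour cells make some of them locally. Lcn2 (lipocalin 2) withholds iron from bacteria by binding their siderophores. Saa1, Saa2 and Saa3 encode serum amyloid A proteins, of which Saa3 is the form made mostly outside the liver, Hp encodes the haemoglobin-binding protein haptoglobin, and Ptx3 encodes a long pentraxin that binds microbes. Slpi encodes a secreted inhibitor of leukocyte proteases, and Elf3 is an ETS family transcription factor of epithelia.

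RNA was sequenced in 31 samples of 11 groups. WT Panc02 spheroids in Matrigel were kept in control medium (Ctrl), in medium conditioned by untreated bone marrow-derived macrophages (M0-CM), or in medium conditioned by macrophages given IFNγ and LPS (M1-CM), with 3 samples each. The conditioned media also held L929 supernatant, which Ctrl medium is not stated to hold. By the study's methods, Ctrl medium held less serum than the complete medium used for the other 3D cultures described next. WT cells and cells in which Cxcl5 was edited with lentiCRISPRv2 (Cxcl5-/-) were grown in 2D or as 3D spheroids, with 3 samples of each of the 4 groups (2D WT, 2D Cxcl5-/-, 3D WT, 3D Cxcl5-/-). A separate set of 3D cultures held WT and Cxcl5-/- cells with 2 samples each (rescue WT, rescue Cxcl5-/-), and Cxcl5-/- cells that overexpressed a stabilised mutant Hif1a (Hif1a OE) or Myc (Myc OE) from a retrovirus, with 3 samples each. No group carried an empty retrovirus, so a transgene and the making of its line cannot be told apart. The edited cells were selected with puromycin and are not stated to be 1 clone, and spheroids were pooled for a sample. The study's methods speak of biological replicates for its experiments in general, but the labels do not say how the sequenced samples of a group relate, so p-values measure the spread between these samples, which may be technical.

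The proximal promoters of the members are shown first, since they are the sequences nearest to a shared transcriptional response. RefSeq (GRCm38.p6) had an entry for 7 of the 8 members, all but Hp. The 250 bases before the annotated start, read 5′ to 3′ along the gene, are printed for Lcn2, Saa3, Slpi and Elf3, on which the results below turn, and for Saa1 and Saa2, whose near identity bears on their counts. Capitals mark matches to the C/EBP letters TTNNGNAA or, in Elf3, to the NF-κB consensus, on either strand.
Lcn2: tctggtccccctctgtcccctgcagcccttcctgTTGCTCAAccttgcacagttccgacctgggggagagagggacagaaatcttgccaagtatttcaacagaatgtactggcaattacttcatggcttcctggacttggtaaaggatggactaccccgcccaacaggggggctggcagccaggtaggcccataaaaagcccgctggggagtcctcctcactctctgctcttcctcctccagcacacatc
Saa3: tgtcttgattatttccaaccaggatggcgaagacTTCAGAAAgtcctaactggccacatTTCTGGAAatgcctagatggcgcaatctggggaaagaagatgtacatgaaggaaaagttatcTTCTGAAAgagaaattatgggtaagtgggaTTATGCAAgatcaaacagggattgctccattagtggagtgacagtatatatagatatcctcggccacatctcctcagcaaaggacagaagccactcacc
Slpi: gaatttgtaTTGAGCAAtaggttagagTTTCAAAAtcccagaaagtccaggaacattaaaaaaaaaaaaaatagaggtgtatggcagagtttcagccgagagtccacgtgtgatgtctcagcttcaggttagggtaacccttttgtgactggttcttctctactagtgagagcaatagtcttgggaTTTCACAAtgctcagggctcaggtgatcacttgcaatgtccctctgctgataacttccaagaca
Elf3: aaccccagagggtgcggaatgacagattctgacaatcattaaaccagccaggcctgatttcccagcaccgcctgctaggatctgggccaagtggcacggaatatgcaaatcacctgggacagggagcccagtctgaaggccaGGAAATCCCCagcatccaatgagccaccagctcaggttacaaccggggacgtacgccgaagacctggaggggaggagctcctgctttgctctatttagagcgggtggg
Saa1: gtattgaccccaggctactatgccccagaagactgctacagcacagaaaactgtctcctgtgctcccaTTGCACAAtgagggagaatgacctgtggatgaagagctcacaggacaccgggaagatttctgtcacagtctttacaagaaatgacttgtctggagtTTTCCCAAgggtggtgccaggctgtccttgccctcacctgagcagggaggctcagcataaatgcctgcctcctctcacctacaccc
Saa2: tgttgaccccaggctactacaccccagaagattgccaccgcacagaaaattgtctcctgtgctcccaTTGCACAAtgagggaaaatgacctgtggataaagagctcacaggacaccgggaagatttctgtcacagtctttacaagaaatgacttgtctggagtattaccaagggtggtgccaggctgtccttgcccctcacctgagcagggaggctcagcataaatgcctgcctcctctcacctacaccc

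These windows were chr2:32387740-32387989 (minus strand) for Lcn2, chr7:46715677-46715926 (minus) for Saa3, chr2:164356508-164356757 (minus) for Slpi, chr1:135258473-135258722 (minus) for Elf3, chr7:46742981-46743230 (minus) for Saa1 and chr7:46751583-46751832 (plus) for Saa2. C/EBP letters were present in 6 of the 7 promoters of 300 bases, with 4 matches in Saa3, 3 in Slpi, 2 in Saa1 and 1 each in Lcn2, Saa2 and Ptx3, and in 40.7% of all 32851 promoters. The NF-κB consensus was present in Elf3, 108 bases before the start, and as overlapping matches across the start of Ptx3, and in 4.51% of all promoters. The core of the interferon-stimulated response element overlapped a C/EBP match in Saa3 and were present in 3.44% of all promoters. STAT letters (TTCNNNGAA, in 8.3% of all promoters) and AP-1 letters (TGANTCA, in 7.81%) were in none of the 7. These are matches of letters in a short window and say nothing of what binds there.

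The annotation bears on how far the counts of each gene can be read. In the mouse GENCODE M21 annotation of GRCm38, Saa1 (chr7:46740497-46742980) and Saa2 (chr7:46751790-46754313) are neighbours on opposite strands, their longest coding transcripts were identical at 87.3% of aligned positions and their 300-base promoters at 95.3%. Reads could be split between them, so their counts are uncertain. Elf3 (chr1:135253575-135258568) shares exon bases with the antisense gene Gm26642, and Slpi (chr2:164354070-164389095) with a miRNA gene, Mir7678, that had between 0 and 8 counts in any sample. Libraries were stranded, but the strand setting of the counting is not given in the sources used here, so reads of Elf3 and Gm26642 may not be separated. Exons of Lcn2 (chr2:32384633-32388252), Saa3 (chr7:46711998-46715700), Hp (chr8:109575128-109579172) and Ptx3 (chr3:66219910-66225805) overlapped those of no other gene.

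The total count per sample lay between 41542533 and 78498230. Cxcl5 itself was lower in rescue Cxcl5-/- (38.4 ± 2.51 CPM, counts scaled to the TMM-adjusted library size, SD, n = 2) than in rescue WT (65.9 ± 2.47), but higher under the label 3D Cxcl5-/- (50.6 ± 13.1, n = 3) than in 3D WT (27.0 ± 2.17), so those samples are called the libraries labelled 3D Cxcl5-/-. Hif1a and Myc were lower in them than in 3D WT (log2 fold changes -1.21 ± 0.10 and -1.75 ± 0.12), as they were in rescue Cxcl5-/- against rescue WT (-1.18 ± 0.11 and -1.17 ± 0.15). The paper checked the knockout by immunoblot of the CXCL5 protein. Cxcl5 transcript was present in 2D Cxcl5-/- too (34.3 ± 2.70 CPM), so its level does not test the label. Myc reached 490 ± 81.6 CPM in Myc OE against 21.1 ± 1.59 in rescue Cxcl5-/-, and Hif1a reached 266 ± 27.2 CPM in Hif1a OE and 258 ± 15.4 in Myc OE against 139 ± 7.40. Krt8 was the most abundant of 10 ductal and epithelial markers in every group, and 5 to 7 of the 10 were above 1 CPM. Epcam was at 0 in 9 of the 11 groups, and Cdh1 was also at 0 in several, among them Ctrl and both 2D groups. The fibroblast marker Col3a1 was at 1248 CPM in Ctrl and 223 in rescue WT, against 333 and 471 CPM of Krt8. Neutrophil markers summed to at most 1.59 CPM in any sample. Neutrophil precursors express Lcn2 strongly, and a part of such cells in its counts was not tested.

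The rescue WT libraries stood apart in low-level signal. Counts were present for 1092 and 1099 of 1135 olfactory receptor genes there, against 191 to 228 in rescue Cxcl5-/-, 457 to 624 in Hif1a OE, 448 to 595 in Myc OE, 556 to 736 in 3D WT, 177 to 250 in the libraries labelled 3D Cxcl5-/- and at most 148 in any other sample. Per kb of exon, olfactory receptor genes averaged 0.118 CPM in rescue WT and 0.0148 in rescue Cxcl5-/-. This level is set beside the members below wherever they were near it.

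**Figure D1:**
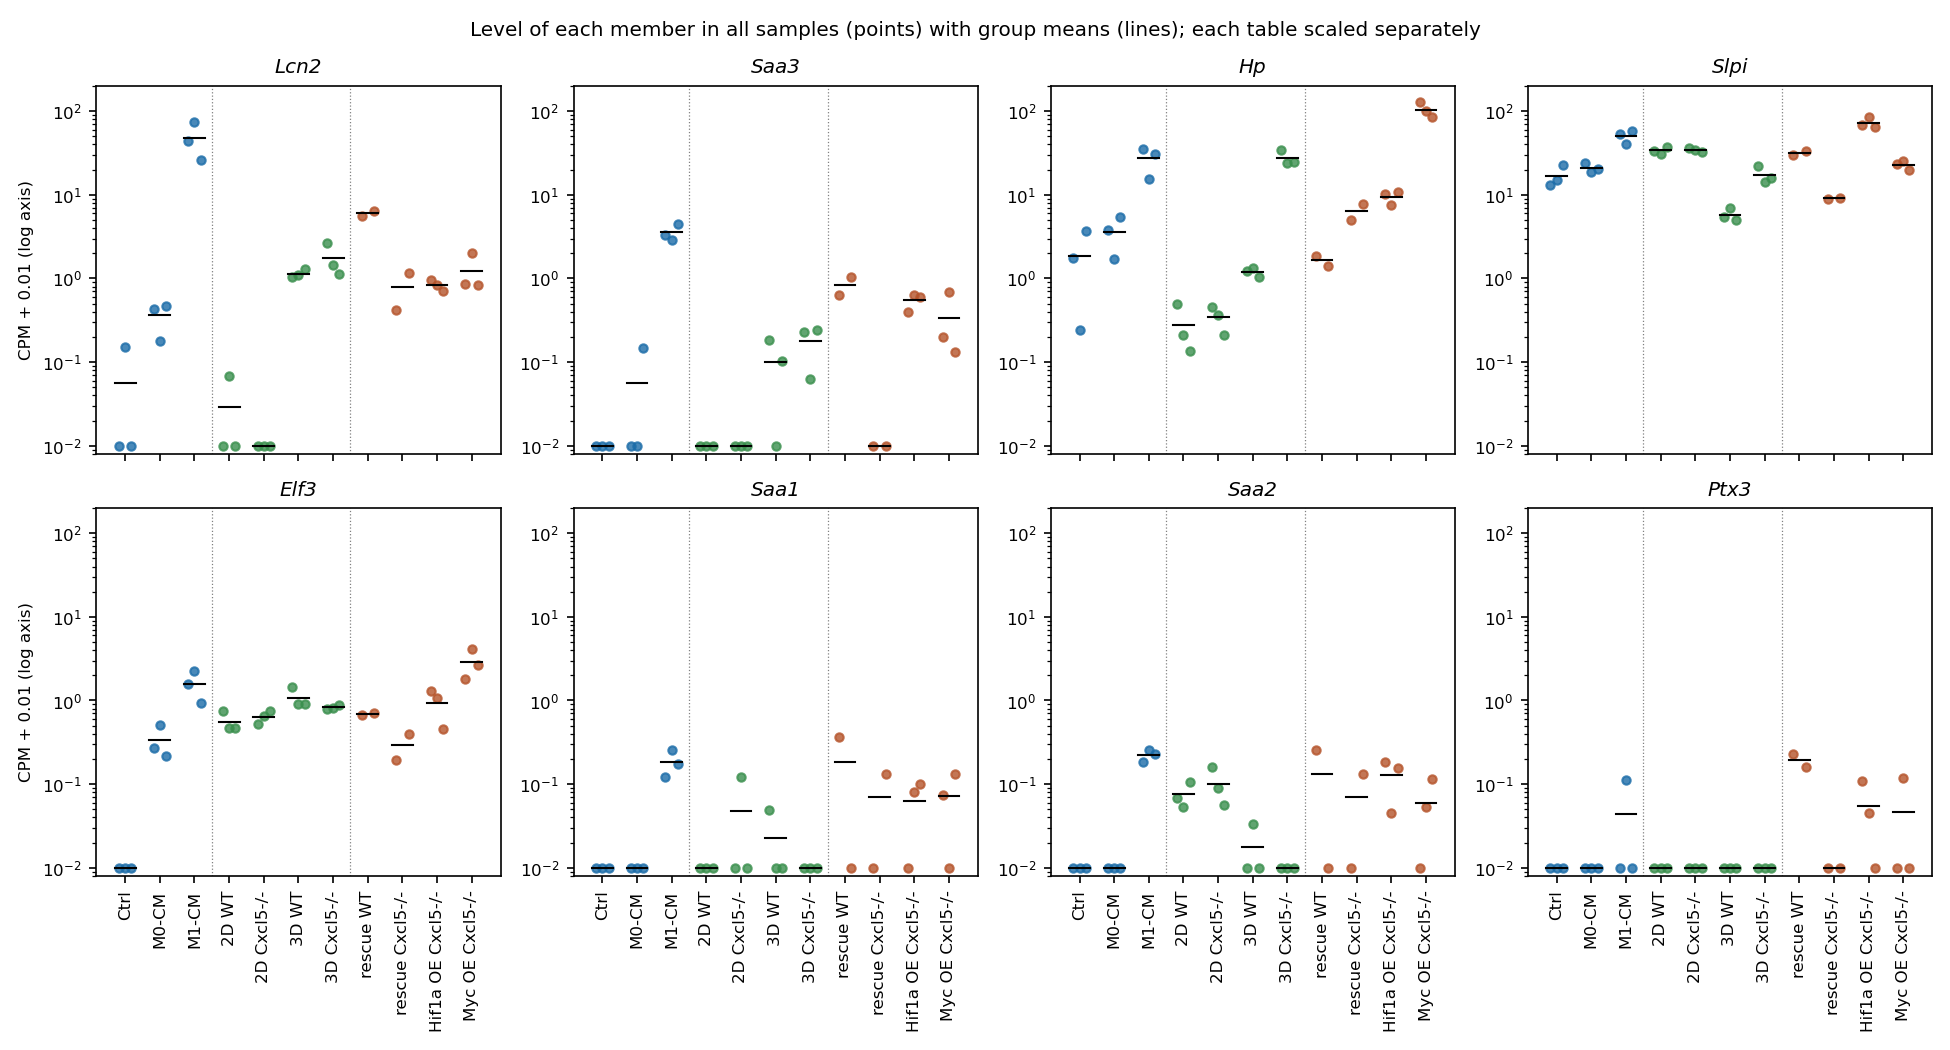
CPM (counts scaled to library size, with 0.01 added for a log axis) of each of the 8 members in all 31 samples, with dots for samples and lines for group means, and dotted lines between the 3 tables, which were scaled separately. Within their tables, Lcn2 and Saa3 peak in M1-CM, Hp in M1-CM, the libraries labelled 3D Cxcl5-/- and Myc OE, and Slpi in Hif1a OE, while Saa1, Saa2 and Ptx3 have at most 16 counts in any sample.

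In WT spheroids with M1-CM, Lcn2, Saa3, Hp, Slpi and Elf3 were all higher than with Ctrl medium or M0-CM, and Lcn2 changed from near absence to a level per kb close to that of Hp. These members were chosen for this difference, so nothing is tested here. Lcn2 had 0, 11 and 0 counts in the 3 Ctrl samples, 29, 10 and 27 with M0-CM and 2728, 3617 and 1433 with M1-CM. Every M1-CM sample was far above every other sample, and in CPM the means were 0.0465 ± 0.0806, 0.351 ± 0.160 and 48.2 ± 24.4 (SD, n = 3). The pooled count, taken per library size, was 847 times that of Ctrl (95% interval 473 to 1698, exact binomial, counting error only). That ratio rests on the 11 counts of Ctrl replicate 2, and the other Ctrl samples had none.

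Saa3 was at 0 counts in all 3 Ctrl samples, at 0, 0 and 8 with M0-CM and at 206, 138 and 245 with M1-CM. Its M1-CM mean of 3.55 ± 0.857 CPM was at least 76.7-fold higher than Ctrl, taking 3 counts per library as the floor. The M0-CM counts all came from replicate 3. The pooled count per library size with M1-CM was 83.2 times that with M0-CM (95% interval 41.9 to 194, counting error only). Saa1 and Saa2 appeared in the same samples at a much lower level. Saa1 had 7, 12 and 9 counts and Saa2 had 11, 12 and 12 with M1-CM, and neither had any in the other 6 samples of that table. These were at least 3.78-fold and 4.64-fold higher than Ctrl, with the reserve on shared reads given above. Ptx3 had 5 counts in 1 M1-CM sample and none elsewhere, and was not tested.

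Elf3 had 0 counts in all 3 Ctrl samples, 18, 30 and 12 with M0-CM and 99, 109 and 50 with M1-CM. Like Lcn2 it stepped up with each medium, at least 6.98-fold above Ctrl with M0-CM and at least 34.2-fold with M1-CM. Its antisense neighbour Gm26642 had 76, 47 and 50 counts in Ctrl and 71, 43 and 29 with M1-CM, and so did not follow it. Hp stood at 1.74, 0.229 and 3.63 CPM in Ctrl, 3.77, 1.68 and 5.36 with M0-CM and 35.0, 15.5 and 31.1 with M1-CM. Ctrl and M0-CM overlapped, and M1-CM was above both, by 3.87 ± 0.82 (SE) against Ctrl and 2.92 ± 0.78 against M0-CM in log2 fold change. Without Ctrl replicate 3 the former was 4.80.

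Slpi was the member already abundant without conditioned medium, at 13.2, 15 and 22.6 CPM in Ctrl and 23.8, 19 and 20.3 with M0-CM. With M1-CM it was at 53.6, 40.4 and 57.2 CPM, above all 6 other samples, a log2 fold change of 1.58 ± 0.23 against Ctrl and 1.26 ± 0.23 against M0-CM. The step was small beside those of the other members. All 6 members with enough counts had every M1-CM sample above every Ctrl sample, where 4.46% of the 19207 genes did, and the same 6 were above M0-CM, where 3.84% of genes were. With M0-CM against Ctrl the groups were apart for Lcn2 and Elf3, 2 of 6, where 5.24% of genes were so. The comparisons share samples and cannot be read as separate evidence. Since the members were chosen for their rise with M1-CM, these counts are a description only. Saa3 and Saa2 had enough counts for the fit only through their M1-CM samples, which fixed their place above the other groups. Saa1 and Ptx3 had too few counts and are not among the 6.

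Of 27 other acute phase genes, 15 could be fitted in this table, 13 of them higher with M1-CM than with Ctrl, and their median log2 fold change was 0.83 against 0.015 for all genes. All 22 cytokine receptors and transcription factors of the acute phase response were fitted, 21 of them higher, with a median of 0.46. Of 8 other epithelial defence genes 4 were higher, with a median of 0.26. ETS factors counted 5 of 7 higher and receptors and partners 9 of 13. Macrophage markers summed to 37.8 to 55.8 CPM in Ctrl and 34.7 to 53.4 with M1-CM, mostly Cd14, and 8 of 10 neutrophil markers were at 0 in both groups.

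In 3D spheroids of WT cells, Lcn2, Hp and Elf3 were higher and Slpi was lower than in 2D culture of the same table. This comparison was made without macrophage medium. Other WT spheroids did not all share these levels. Means in Ctrl and rescue WT were 16.9 and 31.3 CPM for Slpi and 0.0465 and 5.98 CPM for Lcn2. For Elf3 they were 0 and 0.678 CPM, and for Hp 1.87 and 1.63 CPM. Those tables were scaled separately, Ctrl medium held less serum than the medium of the other 3D cultures, and differences between tables were not tested. Lcn2 had 0, 4 and 0 counts in the 3 2D WT samples and 53, 46 and 70 in the 3D WT samples. Its log2 fold change was 5.65 ± 0.73 (edgeR, adjusted p = 6.02e-05), and 9.09 without 2D WT replicate 2, which held all 4 counts. Lcn2 passed the filter on low counts only through its 3D samples, so only a rise could be seen for it here. Hp was at 0.481, 0.201 and 0.125 CPM in 2D WT and 1.20, 1.33 and 1.03 in 3D WT. All 3D samples were above all 2D samples, with a log2 fold change of 2.21 ± 0.38 (adjusted p = 0.00028), which was 2.87 without 2D WT replicate 1.

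Slpi was at 33.5, 30.5 and 37.7 CPM in 2D WT and fell to 5.35, 6.96 and 4.92 in 3D WT. The groups did not overlap, and the decrease was 5.92-fold (log2 fold change -2.56 ± 0.17, adjusted p = 6.72e-08). Elf3 was at 0.732, 0.460 and 0.459 CPM in 2D WT and 1.43, 0.887 and 0.903 in 3D WT. Its log2 fold change of 0.98 ± 0.31 passed the threshold (adjusted p = 0.0193), but leaving out 2D WT replicate 2, 2D WT replicate 3 or 3D WT replicate 1 gave adjusted p of 0.0608, 0.0675 and 0.0912. With this, 4 of 4 tested members changed, in a comparison in which 44.3% of all 21367 genes did. Lcn2, whose direction was fixed by the filter on low counts, is among the 4.

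Saa3 had no counts in 2D WT and 9, 0 and 5 in 3D WT, and Saa2 had 3, 3 and 7 in 2D WT and 0, 1 and 0 in 3D WT. The filter on low counts left both out of the test. Without it edgeR called Saa3 higher in 3D WT (adjusted p = 0.0431), as did DESeq2 (0.0497). Saa1 had 2 counts in 1 of these 6 samples, and Ptx3 had none in any sample of this table. Per kb of exon, Saa3 in 3D WT was at 1.42 times the mean of olfactory receptor genes, while Lcn2 was at 18, Elf3 at 20.2 and Hp at 30.9 times.

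Of 15 other acute phase genes tested, 7 rose and 1 fell (median log2 fold change 1.54, against 0.002 for all genes). In this comparison 44.3% of all genes were called, a share that stands beside each list count of this paragraph. C3, the central complement component, went from 2.36 ± 0.187 to 16.2 ± 1.47 CPM and Cp, the copper-carrying ferroxidase ceruloplasmin, from 476 ± 20.1 to 1495 ± 111. Serpina3n, a serine protease inhibitor, rose too, from 3 counts in all to 121. Of 8 other epithelial defence genes 6 rose and 0 fell, led by Nos2, the inducible nitric oxide synthase, with no counts in 2D WT and 29.1 ± 3.02 CPM in 3D WT. Among the regulators, 11 of 21 rose and 1 fell, and the oncostatin M receptor Osmr went from 19.7 ± 1.06 to 93.6 ± 9.47 CPM, the cytokine Lif from 1.62 ± 0.309 to 7.57 ± 0.177 and the NF-κB cofactor Nfkbiz from 22.9 ± 1.62 to 71.8 ± 3.24. Of 7 ETS factors 3 rose and 0 fell. Of genes for receptors and partners of the members, 4 of 14 rose and 4 fell, and those that rose included Lrp2 (megalin, a receptor that takes up lipocalin 2), Mmp9, a protease that lipocalin 2 binds, and the haem-degrading enzyme Hmox1.

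In 2D culture, the Cxcl5-/- label made no detectable difference to the members. Slpi was at 35.8, 34.4 and 32.6 CPM in 2D Cxcl5-/-, within the range of 2D WT, and its log2 fold change of 0.017 had a 95% interval of -0.30 to 0.33. The groups overlapped for Hp, Elf3 and Lcn2 as well, with differences of 0.38 (interval -0.44 to 1.21) for Hp and 0.21 (-0.39 to 0.82) for Elf3. Lcn2 had no counts in 2D Cxcl5-/- and 4 in 2D WT. By edgeR 0 of 4 tested members were called, and 0 had an unadjusted p under 0.05. DESeq2 also called 0, while 7.02% of all genes were called by edgeR. Other genes did differ in 2D, with 3 of 15 other acute phase genes up and 0 down, 2 of 8 defence genes up and 2 down, 2 of 21 regulators up and 5 down, and 0 of 7 ETS factors up and 2 down. Plac8 went from 27.2 ± 1.84 to 3.62 ± 0.348 CPM and Lyz2 from 0.892 ± 0.163 to 5.41 ± 0.926.

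In 3D culture, the libraries labelled 3D Cxcl5-/- had far more Hp and more Slpi than 3D WT, and no detectable difference in Lcn2 or Elf3. Hp was at 34.8, 23.8 and 24.5 CPM in the former and between 1.03 and 1.33 CPM in the latter. The groups were 23.4-fold apart (log2 fold change 4.55 ± 0.32, adjusted p = 1.11e-07). Slpi was at 22.3, 14.1 and 15.8 CPM against 4.92 to 6.96 CPM in 3D WT, a 3.04-fold increase (1.60 ± 0.17, adjusted p = 5.28e-06). All 3 samples lay above all 3 of 3D WT, and all 3 lay below the 2D samples.

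Lcn2 was at 2.67, 1.44 and 1.13 CPM against 1.03, 1.07 and 1.29 CPM in 3D WT, and the groups overlapped (log2 fold change 0.62, interval -0.32 to 1.57, adjusted p = 0.32). Elf3 was at 0.773, 0.797 and 0.885 CPM against 0.887 to 1.43 CPM, just apart, a difference of -0.39 (interval -0.98 to 0.20, adjusted p = 0.311). Saa3 had 14, 3 and 15 counts against 9, 0 and 5 in 3D WT. The ratio of pooled counts per library size was 1.82 (95% interval 0.944 to 3.69, counting error only). In all, 2 of 4 tested members were called, where 45.0% of all genes were.

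Whether the Cxcl5-/- label moved the members by different amounts in the 2 cultures was tested as an interaction. This term was 4.16 ± 0.53 (log2, adjusted p = 9.26e-05) for Hp and 1.59 ± 0.23 (adjusted p = 0.000263) for Slpi, so both effects were larger in 3D than in 2D. For Hp it was 3.48 without 2D WT replicate 1. For Lcn2 it was 4.07 ± 1.80 (adjusted p = 0.119), a value that rests on the 4 counts of 2D WT replicate 2 and was 0.60 without that sample, and for Elf3 -0.61 ± 0.43 (adjusted p = 0.331). This was 2 of 4 members, where 27.2% of all genes passed.

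From 2D Cxcl5-/- to the libraries labelled 3D Cxcl5-/-, Lcn2 and Hp rose and Slpi fell, the directions seen in WT cells. By the interaction given above, the rise of Hp was larger and the fall of Slpi smaller than in WT cells. Lcn2 went from 0 counts in all 3 samples to 169, 83 and 74, at least 37.7-fold higher (adjusted p = 6.9e-06). It was in the test only through 3D samples, so only a rise could be seen. Hp rose 82.6-fold (log2 fold change 6.37 ± 0.36, adjusted p = 7.26e-09), and Slpi fell 1.97-fold (-0.98 ± 0.16, adjusted p = 0.000164). Elf3 was not called (0.37 ± 0.30, adjusted p = 0.317). In this comparison 3 of 4 tested members were called, where 57.0% of all genes were. Lcn2, with its direction fixed by the filter, is among the 3. Both DESeq2 and edgeR without a filter on low counts also called Saa3 up and Saa2 down, from 0 to 32 and from 18 to 0 counts in all. The other lists moved with 8 of 15 acute phase genes up and 4 down, 5 of 8 defence genes up and 0 down, and 10 of 21 regulators up and 4 down, among them Lifr, from 23.9 ± 1.4 to 431 ± 62.2 CPM.

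Of 15 other acute phase genes 5 rose and 3 fell in the libraries labelled 3D Cxcl5-/- (median 0.17, against -0.039 for all genes). Lbp, the LPS-binding protein, went from 0.105 ± 0.135 to 4.05 ± 0.609 CPM, C3 from 16.2 ± 1.47 to 188 ± 22.1 and Lrg1, a glycoprotein of the acute phase, from 0.0545 ± 0.0944 to 0.702 ± 0.397, while the metallothionein Mt2 fell from 168 ± 7.76 to 51.0 ± 3.65. Regulators moved both ways, 6 of 21 up and 9 down. The LIF receptor Lifr rose from 52.7 ± 6.26 to 431 ± 62.2 CPM and Osmr from 93.6 ± 9.47 to 258 ± 11.9, whereas the cytokine Lif fell from 7.57 ± 0.177 to 1.5 ± 0.365 and the IL-1 receptor accessory protein Il1rap from 7.90 ± 0.830 to 1.12 ± 0.225.

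Of 8 other epithelial defence genes 1 rose and 3 fell, and of 7 ETS factors 0 rose and 4 fell, shares near the 45.0% of all genes called. Plac8 fell from 38.8 ± 8.16 to 4.46 ± 1.19 CPM, Nos2 from 29.1 ± 3.02 to 5.94 ± 0.486 and Lgals3, the lectin galectin-3, from 1435 ± 133 to 494 ± 69.5, while the lysozyme gene Lyz2 rose from 2.73 ± 0.168 to 11.7 ± 3.84. Etv4 and Etv5 were the ETS factors that fell the most. Of receptors and partners 5 of 14 rose and 5 fell, among them progranulin Grn, a target of the protein of Slpi, up from 31.2 ± 2.41 to 88.2 ± 9.60 CPM. The 8 fibroblast markers summed to 636 to 690 CPM in 3D WT and 1212 to 1315 CPM in the libraries labelled 3D Cxcl5-/-. The 10 ductal and epithelial markers summed to 857 to 1100 and 225 to 242 CPM. Col3a1 was the most abundant fibroblast marker in both groups, at means of 496 and 825 CPM. Genes of each list moved both ways. Of 7 fibroblast markers tested 3 rose and 3 fell, and of 7 ductal and epithelial markers 2 rose and 3 fell. The part of these markers in the results was not tested. The 8 hepatocyte markers summed to 0.229 to 0.915 CPM in the libraries labelled 3D Cxcl5-/-. The 14 macrophage markers summed to 43 to 47.4 CPM in 3D WT and 46.4 to 66.4 CPM in those libraries. Their part was not tested either.

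In the separate set of 3D cultures, Cxcl5-/- cells again had more Hp than WT cells, but less Slpi, Lcn2 and Saa3. Hp was at 1.85 and 1.41 CPM in rescue WT and 4.96 and 7.73 CPM in rescue Cxcl5-/-. The increase was 3.89-fold (log2 fold change 1.96 ± 0.29, adjusted p = 0.000282), smaller than the 23.4-fold difference of the other table. Slpi was at 29.6 and 33.1 CPM in rescue WT and 8.92 and 9.21 CPM in rescue Cxcl5-/-. This was a 3.46-fold decrease (-1.79 ± 0.16, adjusted p = 6.48e-06), opposite in direction to the 3.04-fold increase in the libraries labelled 3D Cxcl5-/-. In both tables the groups did not overlap, and the tables were scaled and fitted separately, so the difference between them was not tested. The labels of the rescue samples give cell line names that run from Panc03 to Panc12 and the paper names Panc02, and handling of the 2 sets of cultures cannot be told apart from the tables.

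Lcn2 had 251 and 296 counts in rescue WT and 20 and 57 in rescue Cxcl5-/-. The decrease was 7.58-fold (-2.92 ± 0.53, adjusted p = 0.00114), and the log2 fold change was -3.83 without rescue Cxcl5-/- replicate 2. Saa3 had 28 and 48 counts in rescue WT and none in rescue Cxcl5-/-, at least 13.5-fold lower (adjusted p = 0.00139). It passed the filter on low counts only through the other groups of this table, so rescue Cxcl5-/- could only be lower. Elf3 was at 0.661 and 0.695 CPM against 0.187 and 0.386 CPM, and its difference did not pass (-1.24 ± 0.60, adjusted p = 0.113). Ptx3 had 10 and 7 counts in rescue WT and 0 in rescue Cxcl5-/-, and Saa1 and Saa2 had counts in 1 of 2 samples of each group, and none of these was tested. In all 4 of 5 tested members were called, where 41.9% of all 28730 genes were. Saa3, whose direction was fixed by the filter, is among the 4.

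The lower of these values were near the low-level signal of rescue WT. Per kb of exon, Ptx3 stood at 0.589 times, Saa1 at 0.604 times and Saa2 at 0.408 times the mean of olfactory receptor genes there, and Elf3 at 2.6, Saa3 at 2.7, Hp at 8.62, Lcn2 at 19.3 and Slpi at 225 times. With that level subtracted from every count, a check chosen after seeing the data, the same 4 members were called, with log2 fold changes of -3.12 for Lcn2, -1.98 for Slpi and 1.95 for Hp. Elf3 was then at -0.95 (adjusted p = 0.257). In rescue Cxcl5-/- Lcn2 was at 20.2 times the olfactory receptor level of that group, near its 19.3 times in rescue WT. So the ratio of Lcn2 to the low-level signal was similar in both groups, but its fall remained when that level was subtracted. A link between Lcn2 and that signal was not tested. Elf3 was at 8.72, Hp at 267 and Slpi at 519 times in rescue Cxcl5-/-, and Saa3 had no counts. The ratio of Slpi was higher there than in rescue WT although its CPM was lower, so these ratios are not corrected levels.

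**Figure D2:**
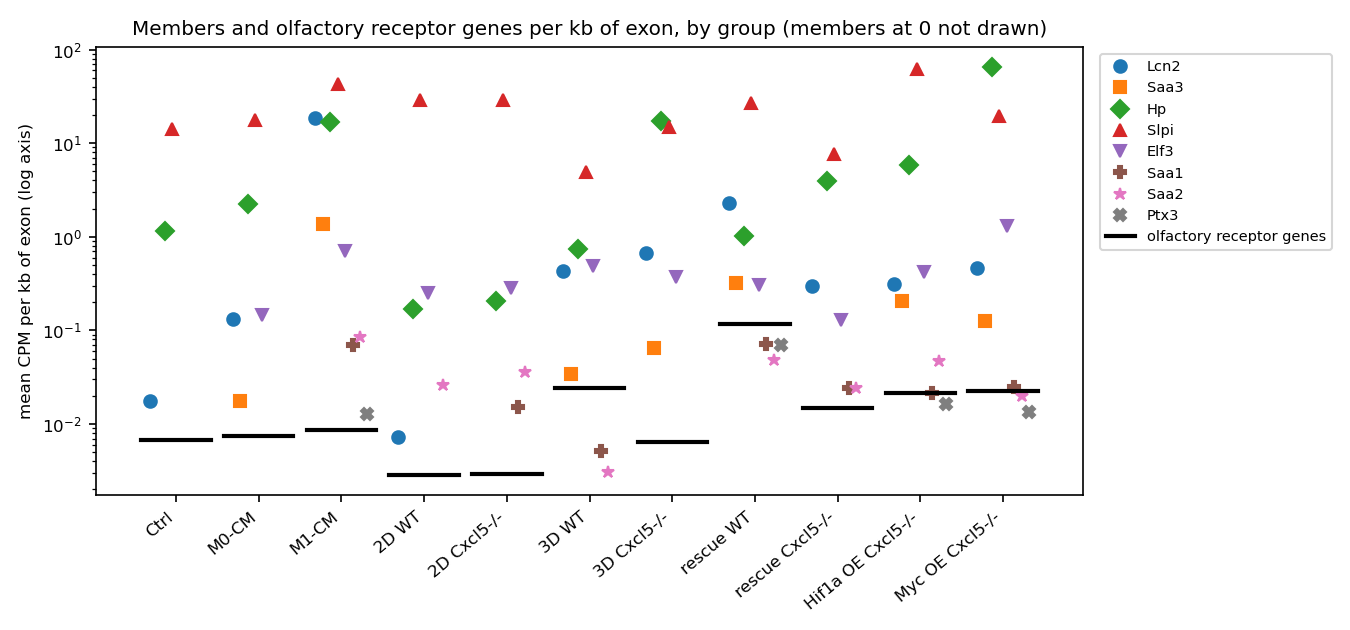
Mean CPM per kb of exon of each member by group on a log axis, with a black line for the mean of 1135 olfactory receptor genes in the same group. In rescue WT that line is at 0.118, with Saa1, Saa2 and Ptx3 below it and Elf3 and Saa3 just above it, whereas Slpi, Lcn2 and Hp stand clear of it. Lcn2 is at 19.3 times the line in rescue WT and 20.2 times the lower line in rescue Cxcl5-/-, where its own level is lower too.

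Of 25 other acute phase genes 2 rose and 8 fell in rescue Cxcl5-/- (median -0.58, against -0.30 for all genes), a share near the 41.9% of all genes called. Of the 4 largest changes, Saa4, Crp and Il1rn were at 1.6, 0.619 and 2.43 times the olfactory receptor level in rescue WT, and only Mt2, which went from 343 ± 18 to 64.4 ± 5.01 CPM, was clear of it. Lifr rose from 17.1 ± 1.03 to 876 ± 10 CPM, the C/EBP factor Cebpa from 1.13 ± 0.127 to 6.39 ± 0.438 and Osmr from 55 ± 3.5 to 162 ± 7.69, and Lif fell from 11.5 ± 0.0189 to 2.23 ± 0.0816. Of 22 regulators 7 rose and 7 fell. Lbp, picked out here after its values were seen, fell from 3.94 ± 0.412 to 0.973 ± 0.115 CPM (log2 fold change -2.01 ± 0.23, adjusted p = 5.28e-05), whereas it rose in the libraries labelled 3D Cxcl5-/-. As with Slpi, the difference between the tables was not tested. Other epithelial defence genes counted 1 up and 5 down of 12, with Plac8 at 12.5 ± 1.76 and 2.15 ± 0.00416 CPM in rescue WT and Cxcl5-/-, and Lgals3 at 1368 ± 11.7 and 499 ± 21.5 CPM. Of 10 ETS factors 2 rose and 5 fell and of 16 receptors and partners 5 rose and 6 fell, but Ehf, Elf5, Lrp2, Tlr2 and Prtn3 were at 0.48 to 1.75 times the olfactory receptor level in rescue WT.

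**Figure D3:**
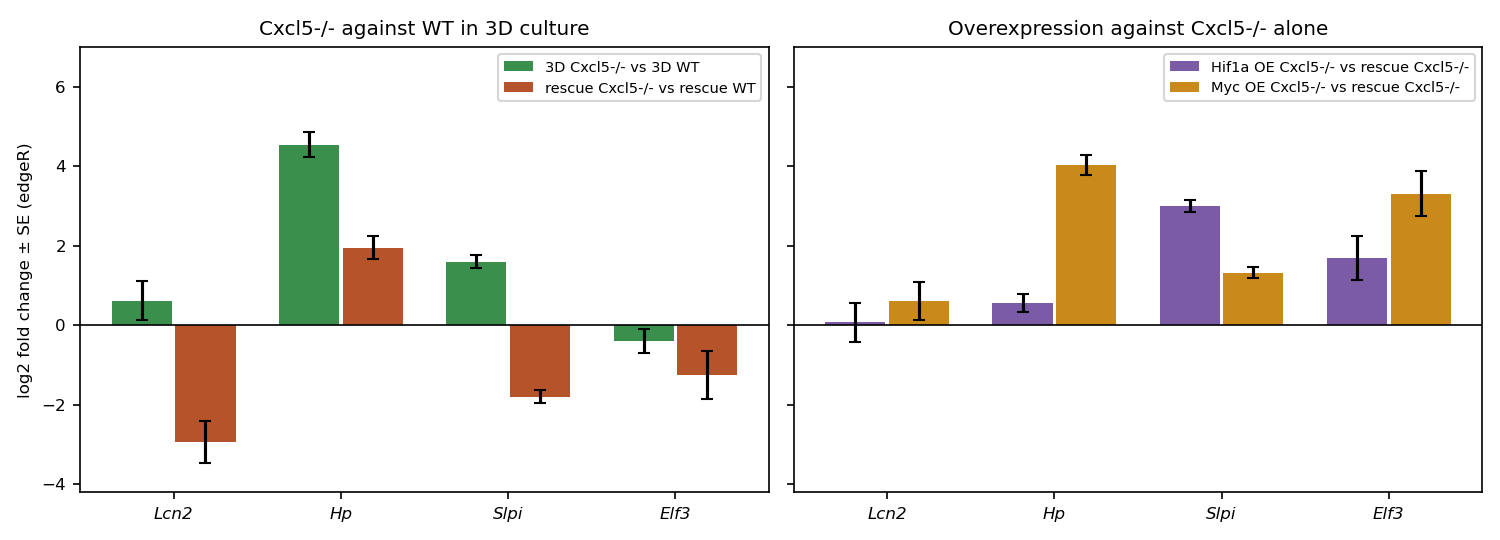
Log2 fold changes (bars) with standard errors for Lcn2, Hp, Slpi and Elf3, at left between Cxcl5-/- and WT cells in 3D culture in each table, at right between Hif1a OE or Myc OE and rescue Cxcl5-/-. Hp is above 0 in both tables while Slpi is at 1.60 in one and -1.79 in the other, and Hp reaches 4.03 with Myc OE and Slpi 3.00 with Hif1a OE.

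Genes that serve as markers of other cell types differed between these groups, although the paper's spheroids were seeded with Panc02 cells only. The fibroblast marker Col3a1 was at 647 CPM in 2D WT as well. Fibroblast markers summed to 294 to 312 CPM in rescue WT and 1486 to 1521 CPM in rescue Cxcl5-/-, and ductal and epithelial markers to 861 to 908 and 295 to 311 CPM. Hepatocyte markers summed to 5.005 to 6.84 and 27.1 to 36.9 CPM, led in rescue Cxcl5-/- by Cyp2e1 at 25.0 CPM, and acinar markers to 1.80 to 2.80 and 9.33 to 13.7 CPM, led by Ctrb1. Their part in the difference in Hp was not tested. In Myc OE, where Hp was highest, the hepatocyte markers summed to 4.93 to 10.8 CPM, and their part there was not tested either. Fewer cells that express a gene and less of its RNA per cell cannot be told apart in these bulk samples.

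Hif1a OE had more Slpi and, less firmly, more Elf3 than rescue Cxcl5-/-. It also had counts of Saa3 where rescue Cxcl5-/- had none, with no detectable difference in Lcn2. Slpi was at 67.7, 85.1 and 64.9 CPM in Hif1a OE against 8.92 and 9.21 CPM in rescue Cxcl5-/-. All samples were also above the 29.6 and 33.1 CPM of rescue WT. The increase over Cxcl5-/- was 8-fold (log2 fold change 3.00 ± 0.15, adjusted p = 2.23e-07). Saa3 had 20, 36 and 33 counts against none, at least 8.76-fold higher (adjusted p = 0.00204), and stood at 9.63 times the olfactory receptor level. With rescue Cxcl5-/- at 0 counts, only a rise of Saa3 could be seen. Elf3 was at 1.29, 1.05 and 0.451 CPM against 0.187 and 0.386 CPM. Its log2 fold change of 1.69 ± 0.56 passed (adjusted p = 0.0352), but not without rescue Cxcl5-/- replicate 1 (0.235), rescue Cxcl5-/- replicate 2 (0.0517), Hif1a OE replicate 1 (0.101) or Hif1a OE replicate 2 (0.0738).

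Lcn2 was at 0.960, 0.821 and 0.704 CPM, between the 2 samples of rescue Cxcl5-/- at 0.415 and 1.16 CPM. The log2 fold change was 0.073 (interval -0.87 to 1.015, adjusted p = 0.949). It was -0.465 without rescue Cxcl5-/- replicate 1 and 1.003 without replicate 2. Every Hif1a OE sample was below the 5.53 and 6.43 CPM of rescue WT. Hp was at 10.1, 7.47 and 10.7 CPM and overlapped rescue Cxcl5-/- (0.57 ± 0.23, adjusted p = 0.0784). It passed without rescue Cxcl5-/- replicate 2 (0.94, adjusted p = 0.0261) or Hif1a OE replicate 2 (0.72, adjusted p = 0.0357). In all 3 of 5 tested members were called, where 35.5% of all genes were. Saa3, whose direction was fixed by the filter on low counts, is among the 3.

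Myc OE had more Hp than all other groups of its table. Elf3, Slpi and Saa3 were also higher than in rescue Cxcl5-/-, and again Lcn2 was not detectably so. Hp was at 127, 99.7 and 84.2 CPM in Myc OE against 4.96 and 7.73 CPM in rescue Cxcl5-/-, a 16.3-fold increase (log2 fold change 4.03 ± 0.26, adjusted p = 6.17e-07). Elf3 was at 1.80, 4.17 and 2.66 CPM, 9.96-fold above rescue Cxcl5-/- (3.32 ± 0.58, adjusted p = 0.000709), and the log2 fold change was 3.93 without rescue Cxcl5-/- replicate 2. Its antisense neighbour Gm26642 had 41, 31 and 51 counts in Myc OE and 38 and 51 in rescue Cxcl5-/-. So the antisense gene stayed level while Elf3 moved.

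Slpi was at 23.3, 25.4 and 19.6 CPM, between rescue Cxcl5-/- and rescue WT and apart from both, 2.51-fold above the former (1.33 ± 0.15, adjusted p = 2.4e-05). Saa3 had 9, 31 and 7 counts against none, at least 5.35-fold higher (adjusted p = 0.00377). Replicate 2 held 31 of the 47 counts, and without it the bound was 2.55-fold. Saa3 stood at 5.65 times the olfactory receptor level. Lcn2 was at 0.845, 1.98 and 0.828 CPM and overlapped rescue Cxcl5-/- (0.62, interval -0.32 to 1.56, adjusted p = 0.323), with a value of 0.081 without rescue Cxcl5-/- replicate 1 and 1.547 without replicate 2. In all 4 of 5 tested members were called, where 39.6% of all genes were. Saa3, which could only rise from 0 counts, is among the 4. Both comparisons with rescue Cxcl5-/- share its 2 samples.

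Set against each other, the 2 lines with a transgene differed in Hp, Slpi and Elf3. Hp was 11-fold higher in Myc OE than in Hif1a OE (log2 fold change 3.46 ± 0.21, adjusted p = 8.99e-07) and Slpi was 3.19-fold lower (-1.67 ± 0.12, adjusted p = 3.75e-06). Elf3 was 3.09-fold higher (1.63 ± 0.44, adjusted p = 0.0229), a call lost without Hif1a OE replicate 3 (adjusted p = 0.066) or Myc OE replicate 2 (0.104). Lcn2 (0.55, interval -0.28 to 1.37) and Saa3 (-0.72, interval -2.03 to 0.59) were not called. This was 3 of 5 members, where 19.3% of all genes were called. Hif1a transcript itself did not differ detectably between Hif1a OE and Myc OE (-0.042, interval -0.22 to 0.13).

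With Myc OE, 8 of 25 other acute phase genes rose over rescue Cxcl5-/- and 2 fell (median 0.53, against 0.11 for all genes), a share near the 39.6% of all genes called, and Lbp went from 0.973 ± 0.115 to 105 ± 12.1 CPM, while with Hif1a OE it was at 0.961 ± 0.308 CPM. Mt2 rose with Myc OE from 64.4 ± 5.01 to 431 ± 54.6 CPM. With Hif1a OE, 6 of 25 rose and 2 fell (median 1.16, against 0.16), near the 35.5% of all genes, and the complement factor Cfb went from 2.84 ± 0.203 to 17.9 ± 3.62 CPM and the metallothionein Mt1 from 198 ± 7.56 to 1006 ± 171 CPM. Between the 2, Lbp was higher and Cfb lower in Myc OE (log2 fold changes 6.76 ± 0.19 and -2.21 ± 0.19), with 4 of 25 higher and 2 lower in all, where 19.3% of all genes were called.

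Some epithelial defence genes were among the many genes that rose with both transgenes. Wfdc2, a secreted protein with the protease inhibitor fold of Slpi, went from 77.5 ± 0.961 CPM in rescue Cxcl5-/- to 452 ± 66.1 in Hif1a OE and 277 ± 46.4 in Myc OE, and Plac8 and Lyz2 rose in both. Of 12 such genes 5 rose and 1 fell with Hif1a OE and 4 rose and 1 fell with Myc OE. Of all genes 35.5% and 39.6% were called, and the Myc OE count was near that share. Among the regulators, Lifr fell from 876 ± 10 CPM to 47.2 ± 5.19 and 112 ± 3.98, and Cebpb, the C/EBP factor of the acute phase, rose from 28.6 ± 6.27 to 59.8 ± 5.38 and 53.5 ± 1.44. Cebpa fell with Hif1a OE to 1.97 ± 0.249 CPM and stood 2.39 ± 0.19 higher on the log2 scale in Myc OE than in Hif1a OE. Counts for the list were 7 up and 5 down of 22 with Hif1a OE, 5 up and 7 down with Myc OE, and 3 up and 7 down between them. The shares of all genes called were 35.5%, 39.6% and 19.3%.

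**Figure D4:**
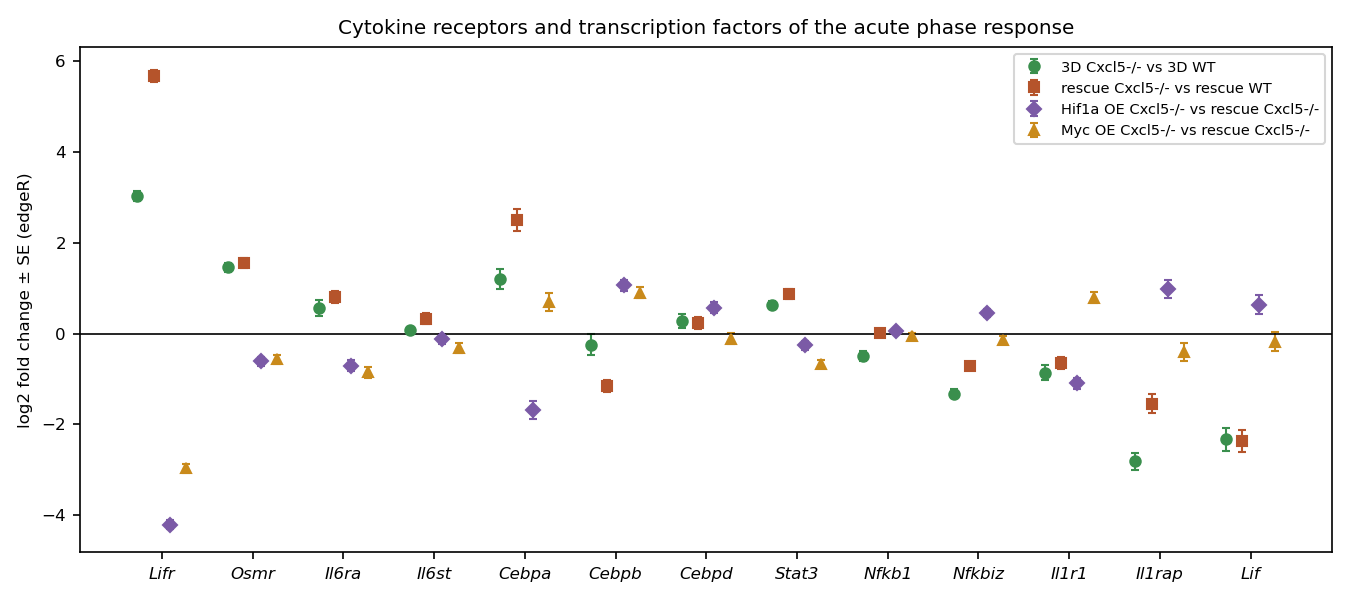
Log2 fold changes with standard errors of 13 cytokine receptors, cytokines and transcription factors of the acute phase response in 4 comparisons, all in 3D culture. Lifr, Osmr and Cebpa are above 0 and Lif and Il1rap below 0 between Cxcl5-/- and WT cells in both tables, and Lifr is the furthest below 0 with either transgene.

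ETS factors and the partners of the members gave mixed counts. Of all genes, 35.5% were called with Hif1a OE, 39.6% with Myc OE and 19.3% between them. Of 10 ETS factors 2 rose and 2 fell with Hif1a OE, 2 rose and 3 fell with Myc OE and 3 were lower in Myc OE than in Hif1a OE, with Etv4 at 0.967 ± 0.334 CPM in rescue Cxcl5-/-, 4.34 ± 0.312 in Hif1a OE and 2.01 ± 0.170 in Myc OE. Of 16 receptors and partners 5 rose and 5 fell with Hif1a OE and 5 rose and 3 fell with Myc OE. Cd163, the scavenger receptor of haptoglobin bound to haemoglobin, was at 8.74 ± 1.53 CPM in rescue Cxcl5-/-, 1.59 ± 0.332 in Hif1a OE and 9.89 ± 0.737 in Myc OE. Slc22a17, a receptor of lipocalin 2, had 164 counts in all in rescue Cxcl5-/-, 39 in Hif1a OE and none in Myc OE. Lrp1, which clears proteases and haem carriers, went from 2142 ± 8.03 to 443 ± 12.9 CPM with Myc OE. Fibroblast markers summed to 628 to 735 CPM in Hif1a OE and 601 to 688 CPM in Myc OE against 1486 to 1521 CPM in rescue Cxcl5-/-, and their part in these changes was not tested.

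Per kb of exon, the order of the members differed between the groups. Slpi led in Ctrl (14.3 CPM per kb), M0-CM, M1-CM (42.7), both 2D groups (28.7 and 29.1), 3D WT (4.87), rescue WT (26.6), rescue Cxcl5-/- (7.68) and Hif1a OE (61.5). In M1-CM, Lcn2 (18.4) and Hp (16.9) followed it, and their samples overlapped on this scale. In the libraries labelled 3D Cxcl5-/-, Hp (17.3) and Slpi (14.8) were close, and in Myc OE Hp (64.5) was above Slpi (19.3). Elf3 stayed between 0 and 1.3 CPM per kb throughout and Saa3 reached 1.36 in M1-CM.

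The genes most like each member over the 11 group means were listed as a description, by the root mean square difference of log2 CPM centred within each table, among 18383 other genes. For Hp they were Hsd11b1, which regenerates active glucocorticoid (1.02), Lrg1 (1.05) and the secreted chaperone clusterin, Clu (1.06), over a range of Hp of 6.95. For Slpi they were the endothelial adhesion gene Esam (0.45), 2700038G22Rik (0.50) and Gm42679 (0.52), over a range of 3.15. For Elf3 they were 1810044D09Rik (0.61), the nucleotide receptor P2ry2 (0.68) and 6530413G14Rik (0.71), over a range of 5.54. No gene came close to Lcn2, the nearest being F830016B08Rik (1.28), Gm5970 (1.48) and Cfap54 (1.58) over a range of 9.60. Lrg1 is itself on the list of other acute phase genes. Each profile joins 3 tables of different cultures, and genes are not independent.

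**Figure D5:**
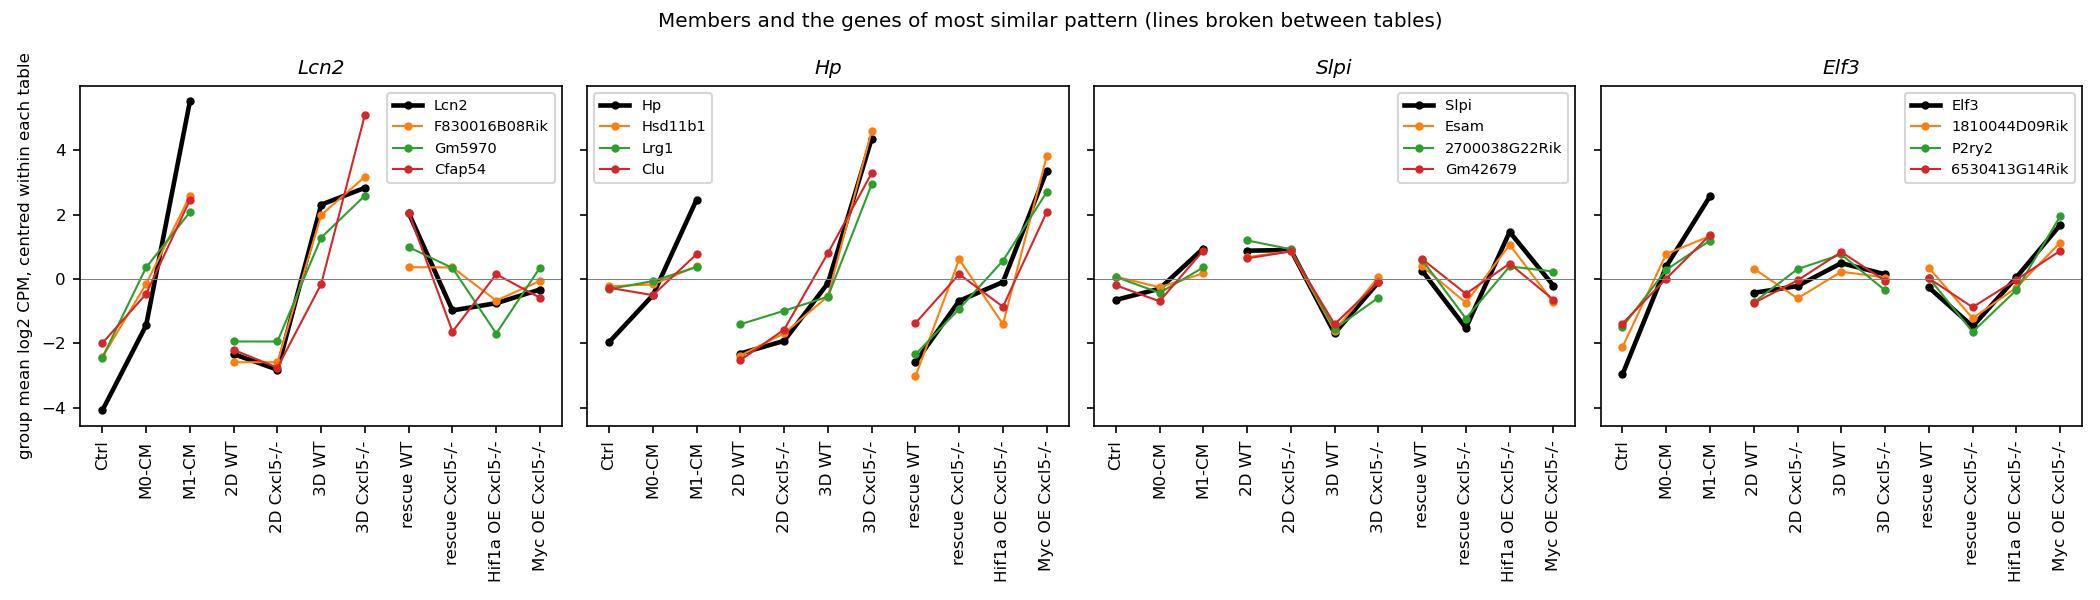
Group mean log2 CPM, centred within each table, of Lcn2, Hp, Slpi and Elf3 (black) and of the 3 genes most like each (coloured), over 11 groups, with lines broken between tables. Hsd11b1, Lrg1 and Clu share the peaks of Hp in the libraries labelled 3D Cxcl5-/- and in Myc OE but rise less with M1-CM, and Lcn2 has a larger step with M1-CM than any gene drawn with it.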

How the data were processed

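RNA of 31 samples of Panc02 cells was sequenced from stranded total RNA libraries. The gene counts deposited by the authors were not normalized, and came from HISAT2 alignment to the mm10 build (GRCm38) followed by StringTie. The annotation release, the strand setting and the step from StringTie to whole counts are not given in the sources used here. DESeq2 was the authors' own test.

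Groups follow the sample labels. Each table was fitted on its own with edgeR 4.0.16 in R 4.3.3 (filterByExpr by group, TMM scaling, quasi-likelihood F test, all groups in the fit, Benjamini-Hochberg adjustment over all genes tested, threshold 0.05). The SE is the absolute log2 fold change divided by the square root of F, and 95% intervals take it as normal. A group at 0 was set to 3 counts per library for a lower bound of a fold. The total count per sample (41542533 to 78498230) and 2 or 3 samples per group set the precision. The members and lists were chosen with earlier results of these data known. The text names all 8 members in every comparison, the 3 genes most like each tested member, and of each other list its counts and called genes among the 4 of largest absolute log2 fold change. Promoters came from RefSeq GRCm38.p6 and exons from GENCODE M21, with all sequences handled in Biopython. The fits were tested on simulated data. Alternatives were the DESeq2 1.42.0 Wald test, other scalings and filters, only the groups compared, the replicate block, each sample left out, summed symbols and, chosen after seeing the data, subtraction of the olfactory receptor level. Replicate numbers did not pair the samples.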

Additional observations from a re-analysis of the deposited data

Results flagged for a closer look

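The effect of the Cxcl5-/- label differed between 3D and 2D culture for 2 members. The log2 difference between the effects was 4.16 ± 0.53 for Hp, with all 3 libraries labelled 3D Cxcl5-/- above all 3 of 3D WT and overlapping groups in 2D, and 1.59 ± 0.23 for Slpi, with the same pattern (edgeR interaction term, adjusted p = 9.26e-05 and 0.000263). Cxcl5 transcript was higher in these libraries than in 3D WT, which does not test a knockout that the paper checked by immunoblot. Hif1a and Myc were lower in them (log2 fold changes -1.21 and -1.75), as in rescue Cxcl5-/- (-1.18 and -1.17).

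Slpi moved in opposite directions with the Cxcl5-/- label in the 2 tables of 3D cultures. Its log2 fold change was 1.60 in the libraries labelled 3D Cxcl5-/- (higher in 3 of 3 samples) and -1.79 in rescue Cxcl5-/- (lower in 2 of 2 samples). The tables were scaled separately, and the difference between them was not tested.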

How the results depend on the processing

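No called difference of a member changed direction under any alternative run. Values near 0 that were not called did: Lcn2 for Hif1a OE against rescue Cxcl5-/- (0.073) was -0.148 with library totals, -0.005 with at least 10 counts in every sample and -0.465 to 1.003 with 1 library left out, and Slpi for 2D Cxcl5-/- against 2D WT (0.017) was -0.036 to 0.125 with 1 library left out. Requiring at least 10 counts in every sample left 2 members testable in the 2D/3D table and 3 in the rescue table, and so lowered the members called to 2 for 3D WT against 2D WT, 1 for 3D Cxcl5-/- against 3D WT, 1 for 3D against 2D Cxcl5-/-, 1 for the interaction, 1 for Hif1a OE and 2 for Myc OE against rescue Cxcl5-/-. For 3D against 2D Cxcl5-/- DESeq2 and edgeR with no filter each called 5 members in place of 3, adding Saa3 and Saa2, and both also added Saa3 for 3D WT against 2D WT. Elf3 lost its call with library totals for 3D WT against 2D WT (adjusted p = 0.067) and for Hif1a OE (0.0643), and for the latter also with no filter (0.0713) and with only the groups compared (0.0531). Between Myc OE and Hif1a OE it lost it with no filter (0.0552). With 1 library left out, every count of members called stayed within 1.5 times its main value. With the replicate block, the members called numbered 4, 2, 0, 3 and 2 in the 2D/3D table and 4, 3, 4 and 3 in the rescue table, as without it, and no call changed. Replicate numbers share only a label here: the mean correlation of same-numbered samples was 0.037, 0.025 and 0.004 in the 3 tables. Library totals moved the median gene by up to 0.387 (log2, 3D Cxcl5-/- against 3D WT). Calls for Saa3 and Saa2 in the 2D/3D table depended on the filter on low counts.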
